A study of Mus musculus with 9 samples.

Results

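Gene expression in the gastrocnemius, the large calf muscle, was compared between mice that trained on a treadmill while receiving metformin (AET_MET) and mice that trained without the drug (AET). The comparison used the 6 of 9 libraries that the labels place in these groups, 3 in each, and was described across the 13944 genes with enough reads to test. Both groups trained for 60 minutes a day on 5 days a week over 8 weeks, so training is common to every value compared. Metformin was given at 2 mg/mL in the drinking water, which was renewed each week. The other 3 libraries came from sedentary mice without the drug (SED) and supply values set beside the comparison. Mice given metformin but no training were not analysed here, so a drug effect on untrained muscle cannot be told apart from one on the training response. The study allotted 8 to 9 mice to each group, and the left muscle was frozen. The sources used here do not give strain, sex, age, feeding state or time of day at collection. The labels do not state that the libraries came from separate mice, so the p-values reflect the spread among libraries, part of which may be technical. Library names have a common stem in each group, and a batch that follows them cannot be told apart from the drug.

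Metformin is a biguanide prescribed to lower blood glucose. It inhibits complex I, the entry point for electrons into the mitochondrial respiratory chain, and the fall in cellular energy charge that follows can activate the kinase AMPK, which restrains growth signalling through mTORC1. Endurance training is known to raise mitochondrial content, capillary supply and matrix turnover of muscle.

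The deposited values are RSEM expected counts, which are estimated reads per gene. Levels are given as CPM, read counts scaled to a common library size with TMM factors, and changes as log2 AET_MET over AET ± SE. The libraries held 22400167 to 25355877 expected counts in AET and 15434424 to 21790936 in AET_MET. These totals did not overlap between the groups (exact two-sided permutation p = 0.1, the smallest that 3 against 3 libraries can give), and their part in the results was not tested. Markers of skeletal muscle fibers stood high in each of the 6 libraries, Ckm at 13245 to 15345 CPM and Acta1 at 11397 to 16201 CPM. Of 10 heart muscle markers 5 were too low to test, and Myl7 was at 0 CPM in all 6 libraries. The other 5 (Actc1, Myh6, Myl4, Ryr2 and Tnnt2) had no call and negative estimates (median -0.55), and the mean of the 5 was 1.66, 1.78 and 1.79 log2 CPM in AET and 1.12, 1.36 and 0.964 in AET_MET, without overlap (exact permutation p = 0.1). Along the first principal component of the 6 libraries (35.8% of variance) AET lay at -26.6, -13.7 and -22.7 and AET_MET at 40.3, 11.1 and 11.7, AET_MET replicate 1 being the farthest out and the library with the fewest counts.

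In trained muscle with metformin, Eif4ebp1, Xbp1, Pfkfb4 and Mstn were among the genes called higher than in trained muscle without it, and Nmrk2, Hnrnpa2b1, Ndufa8 and 8 collagen and matrix genes among those called lower, mostly by modest amounts. Calls are genes with an adjusted p under 0.05 (Benjamini-Hochberg) in edgeR's quasi-likelihood test on all 9 libraries. Of the genes just named, Eif4ebp1, Xbp1, Pfkfb4, Hnrnpa2b1 and Ndufa8 were called in each of 9 fits that left out 1 library. Nmrk2 was called in 6 of these fits and Mstn in 4, and none of the 8 matrix genes was called without AET_MET replicate 3. Of the 13944 genes tested 478 were called (3.43%), 231 of them higher in AET_MET (1.66%) and 247 lower (1.77%). The median size of a called change was 0.50 on the log2 scale, and 314 of the 478 were under 1.5-fold. Changes over 2-fold were less balanced, with 9 genes higher and 38 lower. The 3 libraries of one group lay wholly above those of the other for 3887 genes (27.9%; AET_MET above in 14.7% and below in 13.2%), all 478 called genes among them, and 2984 genes had an unadjusted p under 0.05. With library sizes alone in place of TMM scaling 767 genes were called and 79.7% of them were higher, against 48.3% with TMM, while DESeq2 called 888 genes, 481 of them higher.

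**Figure D1:**
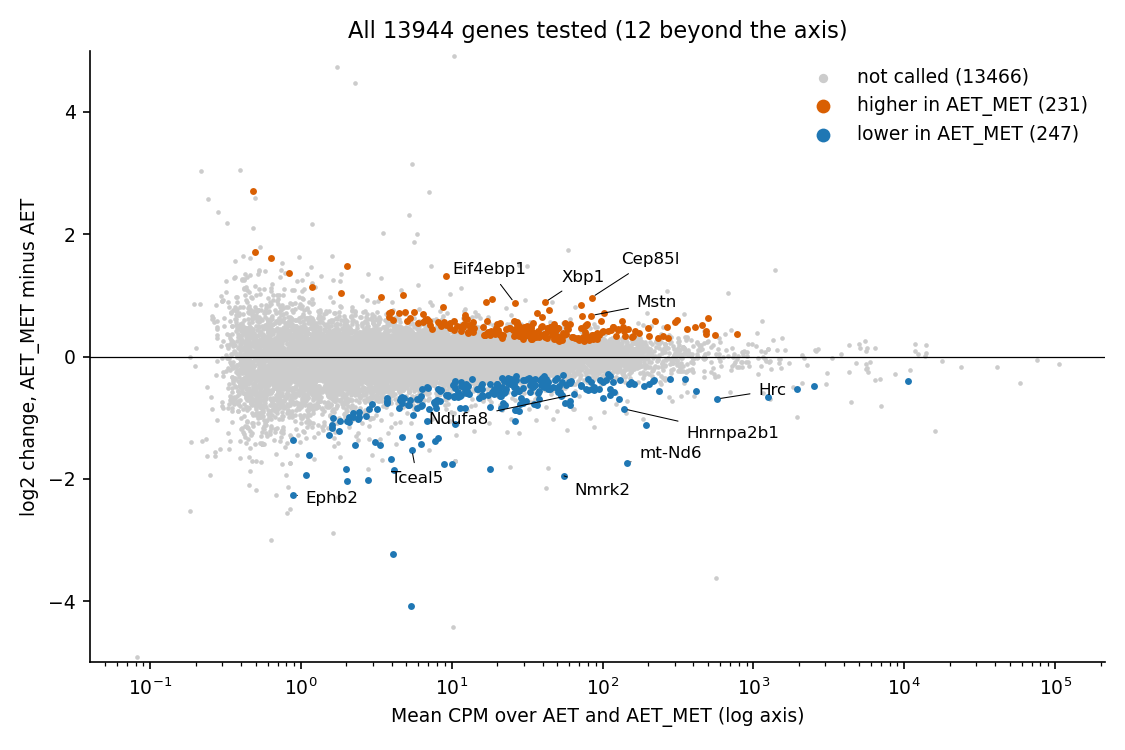
Log2 change of AET_MET over AET against the mean CPM of the 6 libraries (log axis) for the 13944 genes tested, 1 point per gene. Called genes are coloured, 231 higher in AET_MET in orange and 247 lower in blue. The named points run from Ephb2 at -2.26 to Cep85l at 0.96 and most called genes lie within 1 log2 unit of 0.

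The number of calls changed when single libraries were left out, which also leaves fewer libraries to test. It fell to 104 without AET replicate 1, to 34 without AET replicate 3, to 85 without AET_MET replicate 1, to 151 without AET_MET replicate 2 and to 23 without AET_MET replicate 3. Of the 478 genes 96, 32, 81, 126 and 21 were still called in these 5 fits, in that order, and 268 to 393 without any 1 of the other 4 libraries. Every one of the 478 kept the direction of its change in each of the 9 fits. This was nearly fixed in advance, since none of the 478 overlapped between the groups. In all 9 fits 17 genes were called, 8 higher and 9 lower. Expression of slow-twitch fiber genes differed widely among the libraries, with a mean over 14 genes of 4.84, 4.77 and 6.07 log2 CPM in AET and 3.12, 5.40 and 4.19 in AET_MET (exact permutation p = 0.3). With this mean as a covariate 23 genes were called, 22 of them from the 478. Its part in the results beyond that fit was not tested.

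**Figure D2:**
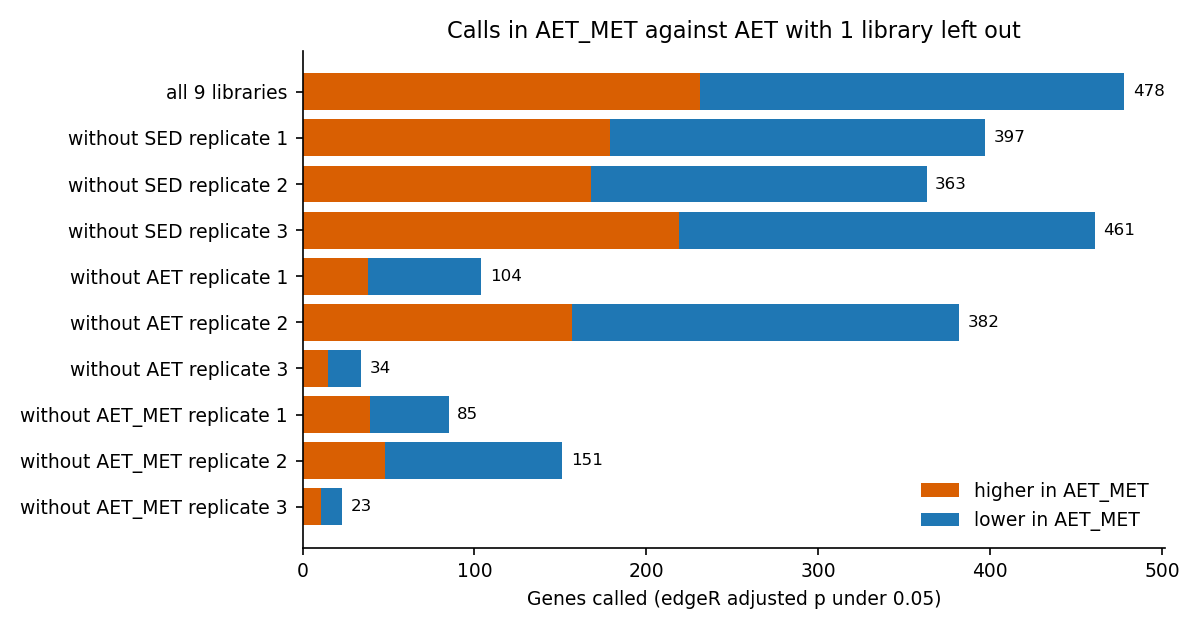
Genes called in AET_MET against AET (edgeR adjusted p under 0.05) with all 9 libraries and with each library left out, split into higher (orange) and lower (blue). The bar of 478 shortens to between 363 and 461 without a SED library and to 23 without AET_MET replicate 3.

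Of the 8 rises called in all 9 fits, Eif4ebp1, Xbp1, Pfkfb4 and Cep85l are given first. Eif4ebp1 encodes 4E-BP1, which holds back cap-dependent translation until mTORC1 phosphorylates it. Its levels were 18.4, 17.3 and 19.6 CPM in AET and 33.8, 33.6 and 33.8 CPM in AET_MET. The AET_MET libraries were nearly identical and lay well above all 3 AET libraries (log2 change 0.87 ± 0.09, edgeR adjusted p = 0.00172). Xbp1 encodes a transcription factor that endoplasmic reticulum (ER) stress activates by splicing of its mRNA, a step that gene-level counts do not show. It stood at 27.3, 32.4 and 27.2 CPM in AET and 55.5, 47.3 and 57.95 CPM in AET_MET. No libraries overlapped and the change was 0.89 ± 0.11 (edgeR adjusted p = 0.00314). Pfkfb4 makes and degrades fructose 2,6-bisphosphate, the signal that sets the pace of glycolysis. Its levels of 24.3, 30.1 and 29.3 CPM in AET and 44.1, 43.9 and 49.1 CPM in AET_MET gave a change of 0.71 ± 0.09 (edgeR adjusted p = 0.00483). The centrosomal protein gene Cep85l was at 63.53, 56.4 and 51.8 CPM in AET and 98.8, 105 and 131 CPM in AET_MET. It had the largest rise of the genes called in all 9 fits, 0.96 ± 0.11 (edgeR adjusted p = 0.00212).

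Another 4 genes were called higher in each of the 9 fits. Slc30a4, which encodes the zinc transporter ZnT4, had levels of 28.4, 27.3 and 27.8 CPM in AET and 41.01, 37.9 and 43.4 CPM in AET_MET, a change of 0.55 ± 0.08. Hist1h1c, encoding a linker histone, was at 76.1, 75.3 and 81.4 CPM in AET and 112, 124 and 112 CPM in AET_MET (0.58 ± 0.08). Fhl3, a LIM-domain protein of muscle, and Zfand5, a ubiquitin-binding protein that stimulates the proteasome, fall outside the rule for naming genes and were picked after their values were seen. Fhl3 stood at 68.9, 80.46 and 82.98 CPM in AET and 129, 132 and 120.1 CPM in AET_MET, and Zfand5 at 227, 254 and 266 CPM in AET and 362, 416 and 353 CPM in AET_MET. Their changes were 0.71 ± 0.11 and 0.60 ± 0.09. In none of these 4 genes did the groups overlap. The calls of Slc30a4 and Fhl3 were lost with the slow-fiber covariate.

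The 9 falls called in all 9 fits included genes of 2 RNA-binding proteins, a kinase scaffold, an enolase and a complex I subunit. Hnrnpa2b1 encodes a nuclear ribonucleoprotein of mRNA splicing and transport. Its levels were 189, 157 and 187 CPM in AET and 94.97, 104 and 95.8 CPM in AET_MET, and the lowest AET library exceeded the highest AET_MET library (log2 change -0.85 ± 0.09, edgeR adjusted p = 0.00179). Taf15, a member of the FET family of RNA-binding proteins, was at 10.98, 6.44 and 9.86 CPM in AET and 3.39, 3.29 and 3.37 CPM in AET_MET (-1.44 ± 0.19). The 3 AET_MET values of Taf15 lay close together while those of AET were spread, and none overlapped. Akap12, a scaffold that anchors protein kinase A, had levels of 37.51, 32.01 and 37.9 CPM in AET and 20.7, 22.4 and 19.7 CPM in AET_MET (-0.77 ± 0.09). The X-linked genes Armcx4 and Tceal5 were at 13.4, 14.2 and 15.2 CPM in AET and 6.78, 6.85 and 6.33 CPM in AET_MET, and at 9.45, 6.48 and 8.23 CPM in AET and 2.90, 2.45 and 3.05 CPM in AET_MET. Their changes were -1.10 ± 0.11 and -1.52 ± 0.18, with edgeR adjusted p = 0.00172 and 0.00311. Eno1, encoding alpha-enolase, the enolase of non-muscle cells and immature fibers, was at 44.4, 46.8 and 43.8 CPM in AET and 30.7, 31.49 and 27.8 CPM in AET_MET (-0.59 ± 0.07). RSEM divides reads between near-identical gene copies, so the level of Eno1, which has such a copy in the mouse, is uncertain.

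**Figure D3:**
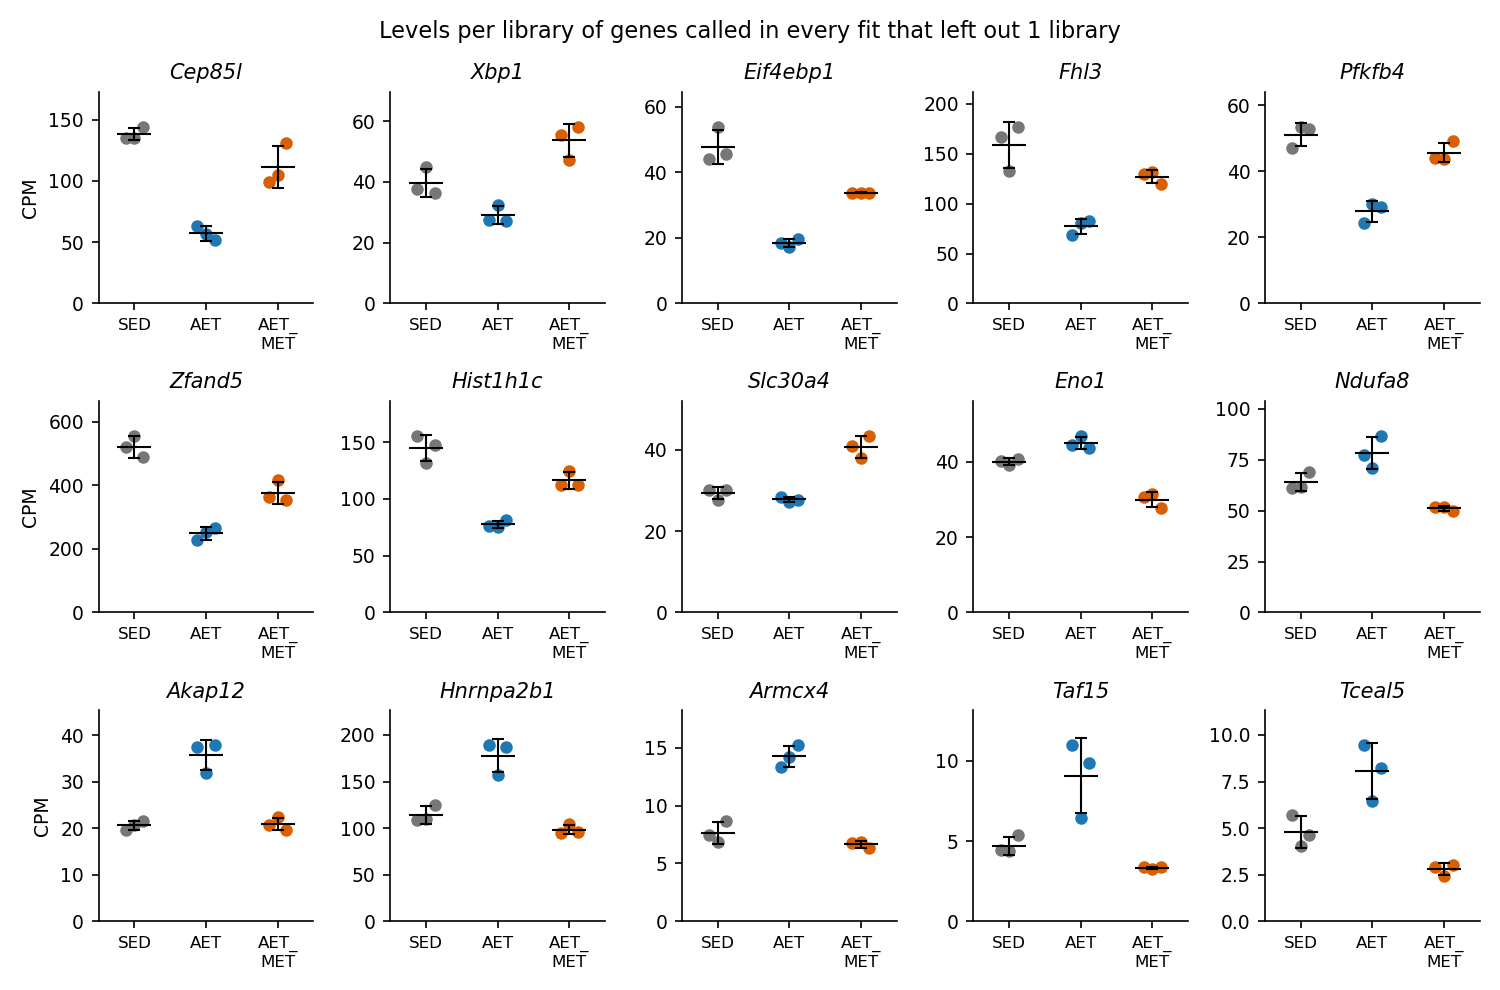
CPM per library (points), mean (long bar) and SD (short bars, n = 3) in SED (grey), AET (blue) and AET_MET (orange) for 15 of the 17 genes called in all 9 fits that left out 1 library. In each panel the 3 AET and 3 AET_MET points do not overlap, as for Eif4ebp1 with 17.3 to 19.6 CPM in AET and 33.6 to 33.8 CPM in AET_MET.

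Beside the sedentary libraries, these genes fell into different arrangements. The contrasts of AET with SED and of AET_MET with AET share the AET libraries, so the values are set side by side and nothing is read from their signs. Eif4ebp1 was at 47.8 ± 5.26 CPM in SED (mean ± SD, n = 3), and AET against SED gave -1.38 ± 0.09 (edgeR adjusted p = 1.29e-05). AET_MET against SED gave -0.50 ± 0.09 (edgeR adjusted p = 0.00823), so Eif4ebp1 lay between the other groups. Slc30a4 was at 29.4 ± 1.39 CPM in SED and differed by -0.08 ± 0.08 between AET and SED (edgeR adjusted p = 0.532). Its AET_MET libraries stood above both other groups (0.47 ± 0.08 against SED, edgeR adjusted p = 0.00670). Xbp1 was likewise highest in AET_MET, 0.44 ± 0.11 above SED at 39.6 ± 4.60 CPM (edgeR adjusted p = 0.0373). Eno1 was lowest in AET_MET, with -0.42 ± 0.07 against SED (edgeR adjusted p = 0.00850) and 0.17 ± 0.07 for AET against SED (edgeR adjusted p = 0.145). Akap12, at 20.7 ± 0.975 CPM in SED, differed between AET_MET and SED by 0.02 ± 0.09 (edgeR adjusted p = 0.938). For other genes called in all 9 fits the mean CPM is given in SED, AET and AET_MET, in that order. AET was lowest in Pfkfb4 (51.2, 27.9 and 45.7), Cep85l (138, 57.2 and 112) and Hist1h1c (145, 77.6 and 116). It was highest in Hnrnpa2b1 (114, 178 and 98.3), Armcx4 (7.65, 14.3 and 6.66) and Taf15 (4.73, 9.09 and 3.35). The same held for Tceal5 (4.80, 8.05 and 2.80) and Ndufa8 (63.9, 78.3 and 51.1).

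The unfolded protein response senses misfolded protein in the ER and raises chaperones and degradation factors through XBP1 and ATF6, which bind the ER stress element (ERSE) in target promoters. Of 31 tested genes of this response 3 were called higher, against 1.66% of all genes tested, and none lower. They were Xbp1, Dnajb9 and Hspa5 (9.68% of the list). Gene lists are read against such shares throughout (1.66% higher, 1.77% lower, 3.43% in all). Of the 478 called genes 365 had a mean over 10 CPM, against 6286 of the 13944 tested. Lists of well-expressed genes thus face a low share, and the part of expression level was not tested. Over all genes 1 was called in 29.2, so a single call in a list of that size is no more than the background and is a result on that gene alone. Of the 37 pathway lists 10 held no call, 11 held 1 and 16 held 2 or more. The median change of the 31 was 0.17, against 0.00072 over all genes tested, and 23 had a positive estimate. The promoters of the 3 called genes are shown because these genes changed in the same direction. Each runs from 250 bases before to 50 bases after the start of transcription, 5′ to 3′ on the gene's strand, as RefSeq gives it on GRCm38.p6. Capitals mark matches to the ERSE, which is CCAAT, 9 free bases and CCACG, and to the core TGACGTG of the unfolded protein response element, both strands searched. The promoters lie at chr2:34771840-34772139 on the plus strand, chr11:5520391-5520690 on the plus strand and chr12:44210019-44210318 on the minus strand.
Hspa5: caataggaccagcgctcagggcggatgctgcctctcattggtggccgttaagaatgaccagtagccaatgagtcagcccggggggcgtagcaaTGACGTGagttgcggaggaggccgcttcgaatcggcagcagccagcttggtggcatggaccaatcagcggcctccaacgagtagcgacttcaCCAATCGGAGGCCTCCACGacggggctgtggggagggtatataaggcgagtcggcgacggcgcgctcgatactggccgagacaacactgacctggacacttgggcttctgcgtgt
Xbp1: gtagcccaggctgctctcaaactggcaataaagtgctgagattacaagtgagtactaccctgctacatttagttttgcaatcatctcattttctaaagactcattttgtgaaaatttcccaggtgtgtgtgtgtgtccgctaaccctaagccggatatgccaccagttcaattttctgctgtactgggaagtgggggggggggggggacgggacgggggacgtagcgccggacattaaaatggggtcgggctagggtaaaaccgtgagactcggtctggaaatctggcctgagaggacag
Dnajb9: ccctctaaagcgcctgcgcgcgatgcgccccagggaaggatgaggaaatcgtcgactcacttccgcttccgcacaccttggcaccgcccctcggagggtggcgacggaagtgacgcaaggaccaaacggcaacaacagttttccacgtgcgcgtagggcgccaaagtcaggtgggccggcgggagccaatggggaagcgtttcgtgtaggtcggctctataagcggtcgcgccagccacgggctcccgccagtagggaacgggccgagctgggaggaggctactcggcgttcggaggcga
Hspa5 had both motifs, the ERSE starting 65 bases and the core 157 bases before the start. Neither run of letters was found in the other 2 windows. The ERSE was present in 0.119% of 32851 mouse promoters of this length and in 9 of the 28 listed for the response genes (32.1%), and the core in 2.01% and 3.57%. The list was drawn up by function, so its shares are not a result of these data. Of 222 promoters of genes called higher 1 had the ERSE (0.45%), that of Hspa5, against 0.123% of promoters of tested genes. For the core these shares were 3.6% and 2.67%. A match is a run of letters, not an observed binding site.

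Hspa5 encodes BiP, the main chaperone of the ER lumen. It stood at 104, 118 and 117 CPM in AET and 158, 144 and 175 CPM in AET_MET, a change of 0.49 ± 0.11 (edgeR adjusted p = 0.0336). Dnajb9, a BiP co-chaperone, was at 22.1, 20.54 and 23.9 CPM in AET and 31.2, 28.9 and 34.8 CPM in AET_MET (0.51 ± 0.11, edgeR adjusted p = 0.0247). In both genes each AET_MET library exceeded each AET library, by the smallest margin in replicate 2 of AET_MET. Other members had values short of the threshold. Herpud1, of ER-associated degradation, had 0.35 ± 0.09 (edgeR adjusted p = 0.0501), and the degradation channel gene Derl1 0.34 ± 0.09 (edgeR adjusted p = 0.0561). The chaperone genes Calr at 0.00 ± 0.08 and Hsp90b1 at -0.09 ± 0.08 and the sensor gene Ern1 at -0.06 ± 0.08 were close to 0. The Hspa5 call was lost without any 1 of the 6 libraries of AET and AET_MET (adjusted p up to 0.155), and that of Dnajb9 without any 1 of them but AET_MET replicate 2 (up to 0.125). Both were also lost with the slow-fiber covariate.

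In the integrated stress response eIF2 phosphorylation and ATF4 raise amino acid synthesis and transport. Its genes held 1 call among 27 tested, higher (3.70%, against 1.66% higher and 3.43% in all over all genes), and their median change was 0.20. The called gene was Cebpb, a leucine-zipper transcription factor, at 7.49, 11.01 and 10.2 CPM in AET and 14.99, 13.9 and 15.7 CPM in AET_MET (0.63 ± 0.15, edgeR adjusted p = 0.0431). Without any 1 of SED replicate 3, AET replicates 1 and 3 and the 3 AET_MET libraries the adjusted p of Cebpb rose to as much as 0.169. Atf4 itself stood at 77.7, 84.95 and 88.2 CPM in AET and 105, 101 and 112 CPM in AET_MET. Its libraries did not overlap, but the change of 0.35 ± 0.09 missed the threshold (edgeR adjusted p = 0.0556). Its proapoptotic target Ddit3 had an estimate of the other sign, -0.67 ± 0.28 (edgeR adjusted p = 0.198). The secreted stress hormones Fgf21 and Gdf15 were too low to test, at 0 to 0.0955 CPM and 0 to 0.0463 CPM in the 6 libraries.

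The calls among nuclear genes of complexes I to V, the TCA cycle and fatty acid oxidation were all lower in AET_MET. Complex I had 4 of 38 subunit genes called lower (10.5%, against 1.77% of all genes) and none higher, with a median change of -0.12. Ndufa8 encodes a subunit of the membrane arm of the complex. It stood at 77.46, 70.98 and 86.6 CPM in AET and 51.8, 51.7 and 49.6 CPM in AET_MET. All 3 AET_MET libraries were below the lowest AET library, and the change was -0.62 ± 0.08 (edgeR adjusted p = 0.00675), a call kept without each of the 9 libraries but not with the slow-fiber covariate. Ndufb10 was at 118, 130.4 and 145 CPM in AET and 95.2, 91.51 and 86.3 CPM in AET_MET (-0.53 ± 0.09), and the acyl carrier protein gene Ndufab1 at 57.51, 65.4 and 76.1 CPM in AET and 50.02, 47.8 and 46.7 CPM in AET_MET (-0.46 ± 0.10). Ndufa5 was at 97.4, 89.4 and 98.1 CPM in AET and 70.1, 71.2 and 72.45 CPM in AET_MET (-0.41 ± 0.09). In none of these 3 genes did the groups overlap, and the edgeR adjusted p were 0.0164, 0.0294 and 0.0258. Their calls were lost without AET replicate 3 or AET_MET replicate 3, for Ndufab1 and Ndufa5 without further libraries too (adjusted p up to 0.120). With library sizes alone 3 of the 38 genes were called lower.

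The promoter of Ndufa8 is shown because that gene had the smallest p of the complex I subunits. It lies at chr2:36049289-36049588 on the minus strand (RefSeq, GRCm38.p6), and the capitals mark a match to GCGC, 2 free bases and GCGC again (both strands searched), the form of a binding site of NRF1, a transcription factor of respiratory chain genes.
Ndufa8: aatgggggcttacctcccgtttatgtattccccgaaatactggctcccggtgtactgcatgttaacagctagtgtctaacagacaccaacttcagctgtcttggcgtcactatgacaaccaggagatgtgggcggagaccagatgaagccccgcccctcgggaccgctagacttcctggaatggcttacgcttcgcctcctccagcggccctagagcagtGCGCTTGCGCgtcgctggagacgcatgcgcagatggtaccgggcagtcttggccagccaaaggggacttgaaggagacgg
The match starts 30 bases before the start of transcription. The same letters were present in 6.23% of all promoters of this length, 12.5% of those of tested genes and 10.3% of those of genes called lower. They were in 10 of 35 promoters listed for complex I (28.6%), which belong to 9 of 33 genes. The overlapping promoters of Ndufa5 hold the same match. Of the other called subunits Ndufab1 had a match and Ndufb10 had none. Nrf1 itself was at 8.88, 9.10 and 10.1 CPM in AET and 10.1, 9.63 and 8.62 CPM in AET_MET, and the groups overlapped (0.01 ± 0.11, edgeR adjusted p = 0.974).

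Complexes II to V had 1 call in 41 genes, lower (2.44%, against 1.77% lower and 3.43% in all over all genes), and a median change of -0.14. It was Cycs, encoding cytochrome c, the mobile electron carrier, at 219.8, 242 and 271 CPM in AET and 183, 193 and 179.8 CPM in AET_MET (-0.40 ± 0.09, edgeR adjusted p = 0.0323). The TCA cycle had 2 of 22 genes called lower (9.09%) and a median of -0.20. They were Dld and Dlst, which encode the E3 and E2 subunits of 2-oxoglutarate dehydrogenase. Dld was at 182, 169.6 and 208 CPM in AET and 135, 144 and 129 CPM in AET_MET (-0.45 ± 0.09), and Dlst at 164, 165 and 200.4 CPM in AET and 140.3, 137 and 119 CPM in AET_MET (-0.42 ± 0.09). The groups did not overlap in either gene. Fatty acid oxidation had 1 of 28 genes called lower (3.57%, against 1.77% lower and 3.43% in all over all genes) and a median of -0.17. That gene, Etfb, passes electrons from acyl-CoA dehydrogenases to the respiratory chain and stood at 72.8, 76.2 and 101 CPM in AET and 61.7, 62.7 and 54.54 CPM in AET_MET (-0.48 ± 0.12, edgeR adjusted p = 0.0462), a call lost without any 1 of the 9 libraries (adjusted p up to 0.170). The calls of Cycs, Dld and Dlst were each lost without AET replicate 3, AET_MET replicate 1 or AET_MET replicate 3, and without 1 or 2 further libraries (adjusted p up to 0.134). With library sizes alone Cycs, Dlst and Etfb were not called.

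Mitochondrial ribosomal proteins had 3 of 77 genes called lower (3.90%, against 1.77% of all genes), Mrpl12 (-0.89 ± 0.16), Mrpl27 (-0.48 ± 0.11) and Mrpl42 (-0.38 ± 0.08). Their median change of -0.06 turned positive with library sizes alone. Mrpl12 also binds the mitochondrial RNA polymerase, and its levels were 34.6, 32.2 and 42.55 CPM in AET and 20.48, 21.2 and 17.4 CPM in AET_MET. The Mrpl calls were lost without AET replicate 3 or any AET_MET library, and without 1 further AET library each (adjusted p up to 0.129). Of 34 protein import genes none was called, and the median was -0.01. Of 20 regulators of mitochondrial content none was called either. Ppargc1a, encoding the coactivator PGC-1 alpha, was at 44.9, 46.8 and 50.8 CPM in AET and 46.5, 39.3 and 35.1 CPM in AET_MET, with overlapping groups (-0.24 ± 0.13, edgeR adjusted p = 0.295). Tfam, the packaging factor of mitochondrial DNA, was at 27.9, 25.8 and 29.6 CPM in AET and 27.7, 27.2 and 28.9 CPM in AET_MET, also with overlap (0.01 ± 0.08). Of the 13 protein genes of mitochondrial DNA 1 was called, mt-Nd6, at 272, 134 and 261 CPM in AET and 70.2, 69.6 and 60.6 CPM in AET_MET (-1.73 ± 0.32, edgeR adjusted p = 0.0386). It is the only one of them on the light strand, no strand setting of the counting is stated, and reads of the opposite strand cannot be told apart from its own. Its call was lost without SED replicate 2, AET replicates 1 and 3 or any AET_MET library (adjusted p up to 0.150).

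Of 16 tested genes of NAD synthesis 1 was called, lower (6.25%, against 1.77% lower and 3.43% in all over all genes), a result on that gene alone. Nmrk2 encodes the muscle form of nicotinamide riboside kinase, which turns the vitamin nicotinamide riboside into the NAD precursor NMN. Its levels were 87.6, 80.7 and 95.9 CPM in AET and 32.2, 15.3 and 21.3 CPM in AET_MET. The highest AET_MET library was far below the lowest AET library, and the change was -1.95 ± 0.25 (edgeR adjusted p = 0.0162). In SED it was at 10.01 ± 1.62 CPM, AET against SED gave 3.14 ± 0.27 (edgeR adjusted p = 0.000706) and AET_MET against SED 1.19 ± 0.26 (edgeR adjusted p = 0.0514). Leaving out AET replicate 1, AET replicate 3 or AET_MET replicate 3 ended the Nmrk2 call (adjusted p up to 0.0880), while the slow-fiber covariate did not. None of the other 15 tested genes of the list was called. Nampt, the rate-limiting enzyme of NAD salvage, had levels of 138, 156 and 152 CPM in AET and 185, 170.4 and 176 CPM in AET_MET, without overlap, and 0.25 ± 0.08 (edgeR adjusted p = 0.0954).

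The AMPK pathway held no call in 13 genes. Its nearest member to the threshold was Prkaa2, which encodes the catalytic subunit prevalent in muscle, at 347, 313 and 306 CPM in AET and 400.1, 376 and 418 CPM in AET_MET (0.31 ± 0.10, edgeR adjusted p = 0.0938). Prkaa1, the other catalytic subunit, had 0.09 ± 0.11, and the muscle regulatory subunit gene Prkag3 -0.15 ± 0.09. These are transcript levels, and kinase activity was not measured. Of 9 genes that can carry metformin across membranes 5 were high enough to test and none was called. The organic cation transporter gene Slc22a2 was at 0 to 0.117 CPM in the 6 libraries, and Slc29a4 reached 0.123 CPM. Slc22a3 was at 1.002, 0.547 and 0.487 CPM in AET and 0.740, 0.695 and 0.404 CPM in AET_MET, and the exporter gene Slc47a1 at 14.4, 17.7 and 18.54 CPM in AET and 16.2, 14.96 and 13.2 CPM in AET_MET. Both genes overlapped between the groups, with -0.14 ± 0.45 and -0.19 ± 0.13.

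Glycolysis and glycogen metabolism had 4 genes called higher and 3 lower of 37 (10.8% and 8.11%, against 1.66% and 1.77% of all genes) and a median change of 0.10. The rises included the glycogen primer Gyg, at 168, 168 and 169.8 CPM in AET and 222, 216 and 263 CPM in AET_MET (0.47 ± 0.09, edgeR adjusted p = 0.0187), and the regulator Pfkfb4 described above. The lactate exporter gene Slc16a3 had levels of 154, 189 and 188 CPM in AET and 236, 316 and 247 CPM in AET_MET (0.59 ± 0.12), and Ugp2, which makes UDP-glucose for glycogen, 365, 412 and 465 CPM in AET and 579, 501 and 578 CPM in AET_MET (0.42 ± 0.10). Both were named for completing the count of 4, after their values were seen. The falls were Eno1, Hk1 and Pgm2. Hk1, the hexokinase of most non-muscle tissues, was at 10.9, 9.64 and 10.7 CPM in AET and 7.71, 5.60 and 5.61 CPM in AET_MET (-0.73 ± 0.13). Pgm2, outside the naming rule, was at 2.20, 2.30 and 2.19 CPM in AET and 0.863, 1.07 and 1.03 CPM in AET_MET (-1.16 ± 0.23). Hk2, the muscle hexokinase, overlapped between the groups at 388, 417 and 492 CPM in AET and 399.9, 355 and 336 CPM in AET_MET (-0.25 ± 0.12, edgeR adjusted p = 0.241). The calls other than Pfkfb4 and Eno1 were lost on leaving out AET replicate 1, AET replicate 3 or AET_MET replicate 3 (adjusted p up to 0.158, for Ugp2).

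Insulin and glucose uptake genes had 1 call in each direction among 27 (7.41% called, against 3.43% of all genes). Txnip, an arrestin-like protein that limits glucose uptake, was at 620.3, 708 and 699 CPM in AET and 902, 876 and 842 CPM in AET_MET (0.37 ± 0.08, edgeR adjusted p = 0.0344). Stx4a, the membrane syntaxin at which glucose transporter vesicles dock, was at 19.4, 16.01 and 20.2 CPM in AET and 10.6, 11.99 and 12.2 CPM in AET_MET (-0.67 ± 0.11, edgeR adjusted p = 0.0125). Slc2a4, encoding the transporter GLUT4 itself, stood at 219.8, 279 and 277 CPM in AET and 288, 332 and 298 CPM in AET_MET. Its AET_MET libraries were all above AET, and its change of 0.24 ± 0.11 did not pass (edgeR adjusted p = 0.212). Txnip was called in 3 and Stx4a in 7 of the 9 fits without 1 library, and both were lost without AET replicate 3 or AET_MET replicate 3 (adjusted p up to 0.108 and 0.0681).

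**Figure D4:**
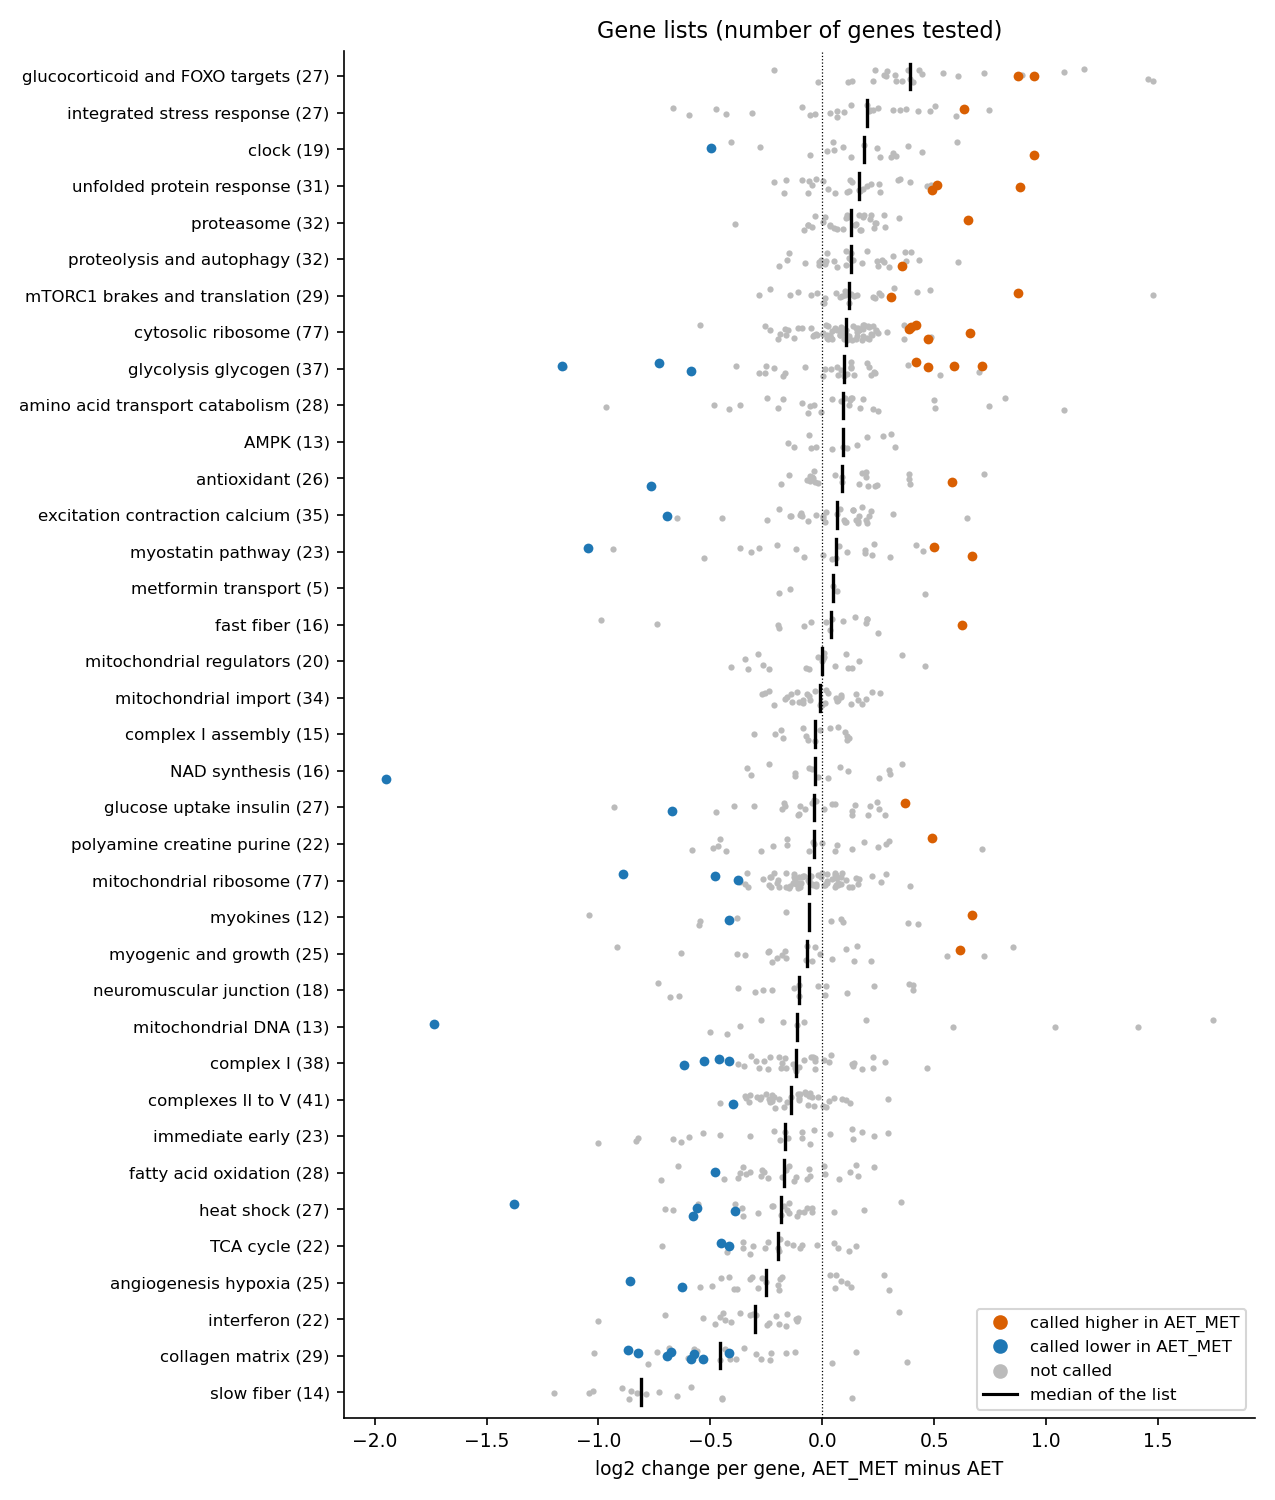
Log2 change of AET_MET over AET for each tested gene of the 37 pathway lists (points, called genes in orange where higher and blue where lower), with the median of each list (black bar) and the number of genes tested in brackets. The medians run from -0.81 for slow-fiber genes, with no call, to 0.39 for glucocorticoid and FOXO targets, with 2 calls.

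Glucocorticoid and FOXO targets, a set that slows growth and frees amino acids in fasting or disuse, had the highest median of the 37 pathway lists, 0.39, and 25 of 27 estimates were positive. Yet 2 of the 27 were called, both higher (7.41%, against 1.66% of all genes), Eif4ebp1 and Per1. Per1 belongs to the circadian clock and responds to glucocorticoids. It was at 13.4, 13 and 11.4 CPM in AET and 21.9, 26.49 and 24.4 CPM in AET_MET (0.95 ± 0.17, edgeR adjusted p = 0.0247), with 29.1 ± 7.93 CPM in SED, and its call was lost without any 1 of the 6 AET and AET_MET libraries (adjusted p up to 0.109). The larger estimates of other members came with wide spread in AET_MET. Trim63, encoding the ubiquitin ligase MuRF1, was at 191, 141 and 192 CPM in AET and 171, 415 and 212 CPM in AET_MET. Its AET_MET replicate 2 was far above the rest while replicate 1 lay among the AET libraries (0.61 ± 0.32, edgeR adjusted p = 0.329). Glul, encoding glutamine synthetase, was at 159, 199.7 and 155 CPM in AET and 211, 570.5 and 302 CPM in AET_MET (1.08 ± 0.35, edgeR adjusted p = 0.139), again highest in replicate 2. Fkbp5, a glucocorticoid-induced chaperone, stood at 28.8, 39 and 28.8 CPM in AET and 35.3, 106 and 38.2 CPM in AET_MET (0.89 ± 0.46). Trim63 is of the named panel, whereas Glul and Fkbp5 were singled out after their values were seen. Fbxo32, encoding atrogin-1, was at 652, 464 and 683 CPM in AET and 633, 1006 and 791 CPM in AET_MET with overlap (0.43 ± 0.18, edgeR adjusted p = 0.189). Pdk4, which closes pyruvate dehydrogenase, was at 1074, 1100.4 and 1508 CPM in AET and 1657, 1696 and 1104 CPM in AET_MET, with overlap too (0.28 ± 0.17).

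The clock list had 1 call in each direction among 19 genes (10.5% called, against 3.43% of all genes). Besides Per1 it was Nr1d1, encoding the repressor REV-ERB alpha, at 60.2, 49.03 and 56.4 CPM in AET and 42.4, 40.8 and 34.1 CPM in AET_MET (-0.50 ± 0.10, edgeR adjusted p = 0.0249). SED stood at 27.2 ± 2.19 CPM for Nr1d1. Clock genes change over the day, and the sources used here give no collection times. Nr1d1 was called in 4 of the 9 fits, none of them without AET replicate 1, AET replicate 3 or an AET_MET library (adjusted p up to 0.109).

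Of 29 mTORC1 brake and translation genes 2 were called higher (6.90%, against 1.66% of all genes), Eif4ebp1 and the helicase gene Eif4a2 (0.31 ± 0.08, edgeR adjusted p = 0.0494), and the median was 0.12. Eif4a2 was called in 0 of the 9 fits without 1 library. Among the mTORC1 brakes, Ddit4 was at 3.15, 5.23 and 3.24 CPM in AET and 4.75, 16.49 and 10.9 CPM in AET_MET, a wide spread (1.48 ± 1.03, edgeR adjusted p = 0.462), and Sesn1 at 16.1, 18.2 and 19.1 CPM in AET and 20.2, 23.4 and 18.9 CPM in AET_MET (0.23 ± 0.20). Of 77 cytosolic ribosomal protein genes 5 were called higher (6.49%) and none lower, with a median of 0.10. They included Rps20 (0.42 ± 0.08), Rps27 (0.47 ± 0.10), Rpl10 (0.39 ± 0.08) and Rpl9 (0.40 ± 0.10). Rps20 was at 78.2, 89.6 and 90.4 CPM in AET and 115, 109 and 121 CPM in AET_MET, without overlap. Ribosomal protein genes have many processed copies, so reads divided by RSEM leave single members uncertain. The calls of these 4 genes were lost without AET replicate 3 or AET_MET replicate 3 (adjusted p up to 0.126).

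Of 32 proteasome genes 1 was called, higher (3.12%, against 1.66% higher and 3.43% in all over all genes). Adrm1, the ubiquitin receptor of the proteasome cap, was at 26.54, 35.8 and 30.4 CPM in AET and 48.7, 47.3 and 49.7 CPM in AET_MET (0.65 ± 0.11, edgeR adjusted p = 0.0125), a call lost without AET replicate 3 or AET_MET replicate 3 (adjusted p up to 0.0785), and 26 of the 32 estimates were positive with a median of 0.13. Proteolysis and autophagy genes had the same share, 1 of 32, Nedd4, a ubiquitin ligase, at 519, 498 and 443 CPM in AET and 632, 592 and 647 CPM in AET_MET (0.36 ± 0.09, edgeR adjusted p = 0.0470). Nedd4 was called in 1 of the 9 fits (adjusted p up to 0.181), and not with upper-quartile scaling.

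Chaperones of the cytosol and mitochondria were lower in AET_MET where they were called. Of 27 heat shock genes 4 were called lower (14.8%, against 1.77% of all genes) and none higher, 24 estimates were negative and the median was -0.18. Hspb6, a small heat shock protein of muscle, stood at 265, 271 and 316 CPM in AET and 191, 198 and 188 CPM in AET_MET (-0.56 ± 0.11, edgeR adjusted p = 0.0236). Hsph1, an Hsp110 exchange factor, was at 61.1, 56.1 and 65.1 CPM in AET and 39.7, 36.9 and 45.4 CPM in AET_MET (-0.58 ± 0.12), and Hspd1, the mitochondrial chaperonin Hsp60, at 136, 141 and 166 CPM in AET and 113, 116 and 109 CPM in AET_MET (-0.39 ± 0.09). The groups did not overlap in these genes. Hspa1a, an inducible Hsp70, was at 8.11, 16.48 and 8.84 CPM in AET and 4.56, 4.77 and 3.59 CPM in AET_MET (-1.38 ± 0.26), but its near-identical neighbour Hspa1b overlapped between the groups at 5.30, 14.4 and 3.37 CPM in AET and 7.46, 4.21 and 4.31 CPM in AET_MET, and reads between the copies are divided by estimate. The 4 calls were lost without AET replicate 3 or any AET_MET library (adjusted p up to 0.129). Among 26 antioxidant genes 1 was called in each direction (7.69% called, against 3.43% of all genes). Txn2, mitochondrial thioredoxin, was at 63.9, 67.2 and 81.8 CPM in AET and 42.2, 44.8 and 38.47 CPM in AET_MET (-0.76 ± 0.14), and the quinone reductase gene Nqo1 at 13.3, 13.4 and 14.52 CPM in AET and 17.1, 23.1 and 21.1 CPM in AET_MET (0.58 ± 0.11). Txn2 and Nqo1 were not called without AET replicate 1, AET replicate 3 or AET_MET replicates 2 and 3 in turn (adjusted p up to 0.109).

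Growth control by myostatin, a muscle-secreted inhibitor of muscle mass, had 2 genes called higher and 1 lower of 23 (13% called, against 3.43% of all genes). Mstn was at 69.8, 61.9 and 61.7 CPM in AET and 107, 93.6 and 107 CPM in AET_MET, so each AET_MET library exceeded each AET library (0.67 ± 0.12, edgeR adjusted p = 0.0210). It was called in 4 of the 9 fits (adjusted p up to 0.104). Its type I receptor gene Acvr1b was at 37.7, 31.3 and 29.7 CPM in AET and 41.01, 48.53 and 49.51 CPM in AET_MET (0.50 ± 0.10, edgeR adjusted p = 0.0238). SED stood higher still for Acvr1b, at 69.53 ± 2.85 CPM. Inhba, which encodes the activin A chain, a ligand of the same receptors, was at 2.58, 2.26 and 2.51 CPM in AET and 0.802, 1.34 and 1.35 CPM in AET_MET (-1.05 ± 0.25, edgeR adjusted p = 0.0384). Acvr1b was called in 5 and Inhba in 2 of the 9 fits without 1 library (adjusted p up to 0.120 and 0.121). Of 25 myogenic and growth genes 1 was called, the myogenic regulator Myod1, at 5.15, 5.97 and 4.99 CPM in AET and 7.46, 8.80 and 8.39 CPM in AET_MET (0.61 ± 0.14, edgeR adjusted p = 0.0370). It was called in 3 of the 9 fits (adjusted p up to 0.148).

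Among the 37 pathway lists the extracellular matrix genes held the most falls. Of 29 tested collagen and matrix genes 8 were called lower (27.6%, against 1.77% of all genes) and none higher, 26 estimates were negative, and the median was -0.46. The 3 AET_MET libraries lay below all AET libraries for 19 of the 29 (65.5%), against 13.2% of all genes tested. The mean level over the list was 5.34, 5.37 and 5.24 log2 CPM in AET and 4.84, 4.92 and 4.86 in AET_MET (exact permutation p = 0.1, the smallest possible). Gastrocnemius is a mixture of cells, and fewer cells of a type or less RNA per cell cannot be told apart in these bulk libraries. Col15a1, a basement membrane collagen, was at 20.05, 19.48 and 29.2 CPM in AET and 13.2, 12.6 and 13.1 CPM in AET_MET (-0.82 ± 0.14, edgeR adjusted p = 0.0141). Col4a2, a chain of the main basement membrane collagen, was at 90.2, 82.8 and 102 CPM in AET and 67.2, 66.3 and 57.1 CPM in AET_MET (-0.53 ± 0.10). Col6a1, of the microfibrillar collagen around fibers, was at 66.1, 61.53 and 59.8 CPM in AET and 40.8, 43.3 and 41.9 CPM in AET_MET (-0.57 ± 0.11). Fbn1, the microfibril protein fibrillin-1, was at 121, 119.6 and 129.6 CPM in AET and 79.2, 80.9 and 71.7 CPM in AET_MET (-0.67 ± 0.13). The groups overlapped in none of these genes. The other 4 calls were Col6a2 (-0.69 ± 0.14), Col1a2 (-0.59 ± 0.13), the collagen chaperone gene Serpinh1 (-0.87 ± 0.20) and the collagen-binding protein gene Sparc (-0.42 ± 0.10).

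The fibrillar collagen gene Col1a1 stood at 54.7, 65.4 and 67.3 CPM in AET and 33.6, 30.3 and 28.55 CPM in AET_MET, without overlap, and missed the threshold (-1.02 ± 0.25, edgeR adjusted p = 0.0717). Dcn, the proteoglycan decorin, overlapped between the groups at 398, 457 and 395 CPM in AET and 428, 464 and 398 CPM in AET_MET (0.05 ± 0.14). Col15a1 was called in 7 of the 9 fits and Serpinh1 in 2, and 4 of the 29 genes were called with library sizes alone. Neither the fit without AET_MET replicate 3 nor the one with the slow-fiber covariate called any of the 8 (adjusted p without 1 library up to 0.170, for Sparc).

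Marker lists of cells that make or lie in this matrix were set beside these values. Fibro-adipogenic progenitor markers had no call in 10 genes and a median of -0.10, and tenocyte markers none in 10 and a median of -0.45. Tenocyte levels overlapped between the groups, at 2.38, 3.60 and 3.13 log2 CPM in AET and 2.90, 3.05 and 1.71 in AET_MET, AET_MET replicate 3 being lowest. Smooth muscle and pericyte markers had no call in 12 genes and a median of -0.30. Their levels did not overlap between the groups (exact permutation p = 0.1), with 6.00, 5.67 and 5.58 log2 CPM in AET and 5.33, 5.53 and 5.33 in AET_MET. The part of these cell types in the matrix values was not tested.

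**Figure D5:**
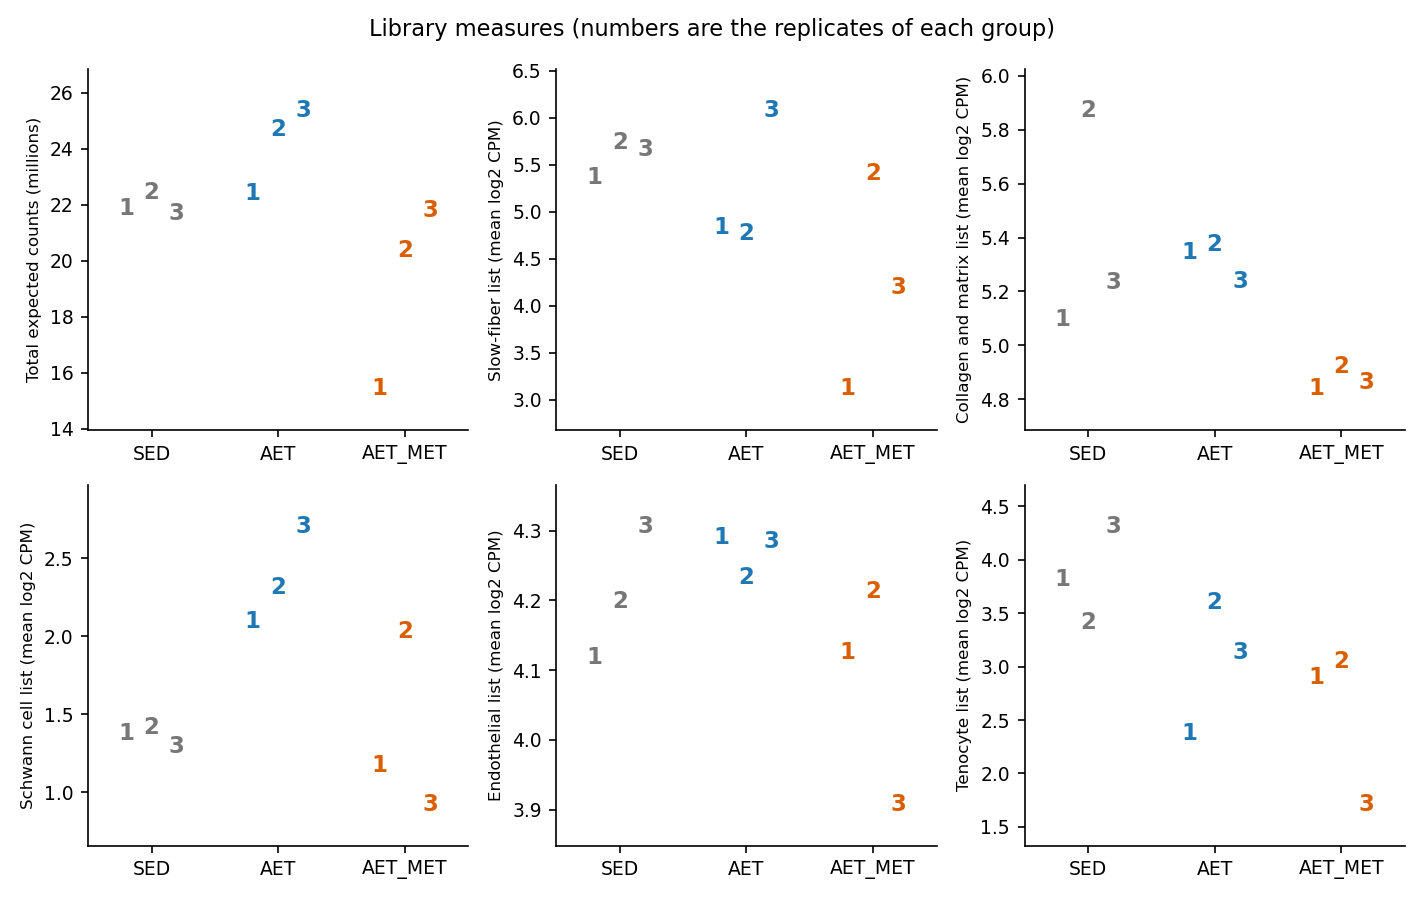
Total expected counts and mean log2 CPM of 5 gene lists in each library, the digit giving the replicate and the colour the group. The collagen and matrix level of AET_MET (4.84 to 4.92) lies below that of AET (5.24 to 5.37), whereas slow-fiber and tenocyte levels overlap between the groups. The axes do not start at 0.

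Of 25 angiogenesis and hypoxia genes 2 were called lower (8%, against 1.77% of all genes) and none higher, with a median of -0.25. Kdr, the main receptor for VEGF on endothelium, was at 55.7, 59.6 and 79.9 CPM in AET and 48.4, 40.8 and 37.48 CPM in AET_MET (-0.63 ± 0.14, edgeR adjusted p = 0.0445). Aplnr, the apelin receptor, was at 4.39, 4.33 and 3.53 CPM in AET and 2.90, 1.85 and 2.06 CPM in AET_MET (-0.86 ± 0.20, edgeR adjusted p = 0.0355). Vegfa was at 86.1, 94.8 and 111 CPM in AET and 73.8, 68.2 and 58.2 CPM in AET_MET, without overlap, and did not pass (-0.54 ± 0.15, edgeR adjusted p = 0.0698). Kdr is also an endothelial marker and was the only call of 12, whose mean was 4.29, 4.23 and 4.29 log2 CPM in AET and 4.13, 4.21 and 3.91 in AET_MET, without overlap. The part of endothelial content was not tested. Kdr was called in 0 and Aplnr in 3 of the 9 fits without 1 library (adjusted p up to 0.157 and 0.150).

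Markers of Schwann cells, the glia of motor axons, had the lowest median of the cell type lists, -1.04, with 11 of 12 estimates negative. The call was Gldn, which clusters sodium channels at nodes of Ranvier, at 1.57, 1.64 and 1.87 CPM in AET and 0.678, 0.695 and 0.314 CPM in AET_MET (-1.60 ± 0.35, edgeR adjusted p = 0.0294), lost without any 1 of the 6 AET and AET_MET libraries (adjusted p up to 0.126). Mbp, encoding myelin basic protein, was at 30.2, 34.2 and 54.1 CPM in AET and 11.3, 26.2 and 12.03 CPM in AET_MET. AET_MET replicates 1 and 3 were low and replicate 2 was near AET, and the change of -1.25 ± 0.38 did not pass (edgeR adjusted p = 0.122). The mean over the list was 2.10, 2.31 and 2.71 log2 CPM in AET and 1.17, 2.03 and 0.925 in AET_MET. Neuromuscular junction genes held no call in 18. How much nerve each sample held was not tested.

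Slow-fiber genes varied widely among the libraries of each group. None of 14 slow-fiber genes was called, although 13 had negative estimates and the median was -0.81. Myh7, the slow myosin heavy chain, was at 131, 84.1 and 534 CPM in AET and 2.28, 265 and 99.2 CPM in AET_MET, from almost none in AET_MET replicate 1 to the highest value in AET replicate 3 (-1.03 ± 1.32, edgeR adjusted p = 0.702). Tnni1, slow troponin I, followed the same order at 9.45, 7.22 and 43.97 CPM in AET and 0.740, 27.1 and 7.99 CPM in AET_MET (-0.73 ± 1.09). Of 16 fast-fiber genes 1 was called, Mylk2, encoding the myosin light chain kinase of skeletal muscle, at 432, 329.8 and 408 CPM in AET and 512, 547 and 746 CPM in AET_MET (0.63 ± 0.14, edgeR adjusted p = 0.0338), and it was called in 1 of the 9 fits (adjusted p up to 0.118). The fast myosin gene Myh4 was at 88558, 65663 and 76099 CPM in AET and 67924, 73568 and 81107 CPM in AET_MET (-0.05 ± 0.12), and Myh2, of intermediate fibers, at 2010.3, 2329.7 and 3469 CPM in AET and 1449, 1599 and 882 CPM in AET_MET, without overlap (-0.99 ± 0.33, edgeR adjusted p = 0.142). Of 35 excitation-contraction and calcium genes 1 was called, Hrc, a calcium-binding protein of the sarcoplasmic reticulum. Its levels of 738, 643 and 730.2 CPM in AET and 415, 456 and 434 CPM in AET_MET did not overlap (-0.69 ± 0.10, edgeR adjusted p = 0.0105), a call that the slow-fiber covariate ended, as did leaving out AET replicate 3 or AET_MET replicate 3 (adjusted p up to 0.0679).

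Among immune lists, 22 interferon response genes held no call, 21 estimates were negative and the median was -0.30. Gbp2, a guanylate-binding protein, was nearest the threshold at 7.06, 5.35 and 9.25 CPM in AET and 3.64, 5.001 and 4.58 CPM in AET_MET (-0.70 ± 0.20, edgeR adjusted p = 0.0643). Macrophage markers held no call in 12 (median -0.30), none of 10 neutrophil markers was high enough to test, and of 12 T and B cell markers 1 was, without a call. Immediate early genes, which respond to recent activity, held no call in 23 (median -0.17).

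The largest called changes were mostly in genes of low level. Among the called genes the steepest fall was that of RPS10-NUDT3, at 10.1, 10.9 and 9.73 CPM in AET and 0, 0.232 and 1.44 CPM in AET_MET (-4.08 ± 0.67). It is a readthrough of neighbouring genes whose reads cannot be told apart from theirs, so its value is uncertain. Ephb2, an ephrin receptor tyrosine kinase, was at 1.67, 1.48 and 1.26 CPM in AET and 0.370, 0.324 and 0.224 CPM in AET_MET (-2.26 ± 0.33, edgeR adjusted p = 0.0101), a call lost only without AET_MET replicate 3 among the 9 libraries (adjusted p = 0.0679). Sept3, a septin, was at 1.67, 1.41 and 2.07 CPM in AET and 0.247, 0.695 and 0.359 CPM in AET_MET (-1.94 ± 0.35), and Cadm4, an adhesion molecule of myelinating Schwann cells, at 2.63, 2.69 and 4.75 CPM in AET and 0.740, 1.85 and 1.03 CPM in AET_MET (-1.45 ± 0.33). The groups did not overlap in either. The chromatin protein gene Hmgn5 was at 5.92, 3.12 and 5.56 CPM in AET and 1.48, 1.90 and 1.93 CPM in AET_MET (-1.44 ± 0.29). Foxo6os, at -2.03 ± 0.39, is antisense to its neighbour and its reads cannot be assigned without the strand. The calls of RPS10-NUDT3, Sept3, Cadm4 and Hmgn5 were each lost without 4 or more libraries in turn (adjusted p up to 0.157).

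Larger rises were found in genes of several functions. Spns2, a transporter of the lipid signal sphingosine 1-phosphate, was at 60.47, 43.2 and 49.48 CPM in AET and 87.7, 89.47 and 97.45 CPM in AET_MET (0.84 ± 0.13, edgeR adjusted p = 0.0125). Rgcc, a cell cycle regulator, was at 9.16, 14.02 and 11.9 CPM in AET and 19.7, 22.04 and 23.6 CPM in AET_MET (0.89 ± 0.15), and Prom1, a membrane protein of cell protrusions, at 2.24, 2.499 and 2.11 CPM in AET and 3.58, 5.51 and 4.26 CPM in AET_MET (0.97 ± 0.21). Atp13a5, a P5-type ATPase, was at 3.15, 3.16 and 3.20 CPM in AET and 4.502, 6.16 and 8.35 CPM in AET_MET (1.01 ± 0.20, edgeR adjusted p = 0.0236). In SED it was at 2.82 ± 0.334 CPM and AET against SED gave 0.17 ± 0.21 (edgeR adjusted p = 0.638). In none of these genes did AET and AET_MET overlap. Of smaller rises with small p, Map2k2, which encodes the kinase MEK2, was at 43.9, 49.3 and 43.9 CPM in AET and 68.9, 63.8 and 68.9 CPM in AET_MET (0.56 ± 0.08), and Arfgap1, which switches off the GTPase of COPI coats, at 15.51, 16.7 and 16.7 CPM in AET and 23.7, 22.3 and 24.6 CPM in AET_MET (0.53 ± 0.08). Smox, encoding spermine oxidase, was at 218, 233 and 219 CPM in AET and 302, 343 and 296 CPM in AET_MET (0.49 ± 0.11, edgeR adjusted p = 0.0300). The calls of Spns2 and Map2k2 were lost without AET replicate 3 or AET_MET replicate 3, that of Arfgap1 without AET_MET replicate 3, and those of Rgcc, Prom1, Atp13a5 and Smox without at least 3 libraries in turn (adjusted p up to 0.114).

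On GRCm38 the genes called in all 9 fits are spread over the genome. Eif4ebp1 lies on chromosome 8 at 27260329 to 27276674, Xbp1 on chromosome 11 at 5520659 to 5525893, Pfkfb4 on chromosome 9 at 108991778 to 109032228 and Cep85l on chromosome 10 at 53273443 to 53379947. Ndufa8 lies on chromosome 2 at 36036326 to 36049406, Hnrnpa2b1 on chromosome 6 at 51460932 to 51469894, Akap12 on chromosome 10 at 4266380 to 4359470 and Slc30a4 on chromosome 2 at 122681233 to 122702663. Each is annotated as protein coding. Of the 478 called genes 442 were protein coding and 7 had no symbol. The called genes did not stand apart in transcript length, with a median longest transcript of 3449 bases in those higher and 3252 bases in those lower against 3340 bases in all tested genes. Their GC content was 47.3% and 51.0% against 49.5%.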

How the data were processed

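RNA was sequenced from 9 libraries of mouse gastrocnemius with an mRNA kit, per the labels' protocols. The authors deposited RSEM expected counts, which are estimated counts per gene that need not be whole (4.85% to 5.53% of values per library were not), and the table holds 55416 gene IDs. STAR 2.5.3a, RSEM 1.3.0, edgeR 3.34.0 and GRCm38 are named per the submitters' processing notes, while strand setting and filters are not stated there. GENCODE M21 gave symbols to 52135 IDs.

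Counts were rounded, filtered with filterByExpr and scaled with TMM, and edgeR 4.0.16 (R 4.3.3) ran its quasi-likelihood test with robust settings. All 9 libraries entered 1 fit (6 residual degrees of freedom, common biological coefficient of variation 0.134), and p-values were adjusted over all 13944 genes tested. Levels of lists are mean log2 CPM with a prior count of 2. Libraries of 1 group correlated at 0.975 to 0.986 and differed by a chi-square per degree of freedom of at least 16.16, so none was counted as a repeat. Library measures were compared by an exact two-sided permutation test, with 20 of 21 giving a p and the smallest adjusted p 0.222. Alternatives were other scalings and filters, DESeq2 1.42.0, limma 3.58.1 with voom, a replicate block, the slow-fiber level as covariate and leaving out each library. The script was checked on simulated counts. Promoters were read from RefSeq on GRCm38.p6.

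Named genes are the 12 largest called changes in each direction with a group mean of at least 1 CPM and an informative symbol, the 8 smallest p in each direction, up to 4 called genes per list and a fixed panel, some of which are not reported here. The comparison, the 50 gene lists (37 pathway, 13 cell type) and the naming rule were chosen with earlier results of these data known, and no list was tested as a set.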

Additional observations from a re-analysis of the deposited data

How the results depend on the processing

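Of the 478 calls (231 higher, 247 lower), totals moved by over 1.5 times with library sizes alone (767, of them 611 higher and 156 lower), without a filter on low counts (731, with 385 lower), with DESeq2 (888, with 481 higher and 407 lower) and with the slow-fiber level as covariate (23, with 13 higher and 10 lower). With at least 5 CPM in 3 libraries the lower calls were 373. Leaving out each library in turn gave 23 to 461 calls, 11 to 219 higher and 12 to 242 lower. The cause of these moves was not tested, except that fewer samples entered the last. Totals stayed between 358 and 479 with RLE or upper-quartile scaling, limma-voom, the 6 libraries alone, the replicate block, and snRNA, snoRNA, mitochondrial and unmatched IDs left out (447, chosen after seeing the data). No called gene with a value turned in direction in any of these but the 5 CPM filter. That filter is left aside here, because a gene it removed could be matched to another with a longer symbol. Over all genes the deviations of same-numbered libraries of AET and AET_MET correlated at -0.051, -8.55e-05 and -0.049. A pairing that touches few genes would not show in these values. The fit with the replicate number as a block called 358 genes. No library correlated above 0.1 with any of the other group. Depth limits genes such as Fgf21 and Gdf15, which had too few reads to test.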

Other observations

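Further gene families were picked after their values were seen, so they are given by counts with no test, and nothing is said of a family as a whole. Over all genes tested 1.66% were called higher and 1.77% lower, the shares to set beside each count below. Several families of the actin cytoskeleton held calls lower in AET_MET. Nonmuscle myosin had 3 of 7 genes called lower and all 7 estimates negative, with Myh9 at 115, 94.8 and 104 CPM in AET and 72.1, 74.46 and 67.4 CPM in AET_MET (-0.55 ± 0.09, edgeR adjusted p = 0.0125), Myh10 at -0.83 ± 0.17 and Myl12b at -0.76 ± 0.12. Filamins and alpha-actinins had 3 of 7 called lower, among them Flna, an actin crosslinker, at 196, 151 and 131 CPM in AET and 102, 112 and 82.1 CPM in AET_MET (-0.69 ± 0.15), and Actn4 at -0.67 ± 0.11. Calponins, tropomyosins and caldesmon had 4 of 10 called lower, such as Cnn2 at -0.81 ± 0.16 and Tpm4 at -0.51 ± 0.11. Many of these genes belong to vessel and connective tissue cells, whose part was not tested. The 36 collagen chains tested had 6 called lower and 33 negative estimates, with a median of -0.50. Septins had 3 of 10 called lower.

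Of 41 coat genes of COPI and COPII vesicles, which move cargo between ER and Golgi, 4 were called higher and none lower, 34 estimates were positive and the median was 0.16. Sar1a, the GTPase that starts COPII coats, was at 73.6, 84.8 and 79.8 CPM in AET and 103, 102 and 108 CPM in AET_MET (0.39 ± 0.08, edgeR adjusted p = 0.0230). Sec23b had 0.49 ± 0.12, the COPI subunit gene Arcn1 0.37 ± 0.08, and Arfgap1 was called as described above. Translation initiation factors had 7 called higher and 2 lower of 54, with 41 positive estimates. Eif5 was at 95.5, 90.46 and 90.4 CPM in AET and 122, 124 and 125 CPM in AET_MET (0.42 ± 0.07, edgeR adjusted p = 0.0120), whereas Eif5b at -0.72 ± 0.16 and Eif3b at -0.51 ± 0.11 were lower. Ankyrin-repeat, kelch and F-box substrate adaptors of ubiquitin ligases had 5 of 96 called higher and none lower, among them Asb5 (0.58 ± 0.09) and Asb11 (0.34 ± 0.07). Beside Hnrnpa2b1, another 3 of 20 nuclear ribonucleoprotein genes were called lower, and of 64 spliceosome genes 5 were called lower with a median of 0.04. Small nuclear and nucleolar RNAs, which an mRNA library is not made to capture, had 5 of 33 called lower and a median of -0.70.

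Many of these calls were also lost when single libraries were left out. Of the genes named here for the first time, Flna was called in 0 of the 9 fits without 1 library, Sec23b and Eif5b in 1, Cnn2 and Asb11 in 3, Myh10, Tpm4, Sar1a, Arcn1 and Eif3b in 4, and Myh9, Myl12b, Actn4, Eif5 and Asb5 in 7 (edgeR adjusted p up to 0.166, for Sec23b). Each of them was lost without AET replicate 3, and each but Myl12b without AET_MET replicate 3.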
